A study of Mus musculus with 12 samples.

Results

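The libraries numbered 1 to 4 were set against the libraries numbered 9 to 12, with the libraries numbered 5 to 8 between them, in a series of 12 RNA-seq libraries from the fetal mouse salivary gland. Each run of 4 library numbers held the same 4 sorted cell populations once, so 8 of the 12 libraries entered the main contrast and each first-run library had a third-run library of its own population beside it. All 12 were used to estimate the spread. The cells came from submandibular glands at embryonic day 15 of mice with the transgene Tg(KRT5-Venus)1Sgkd, in which a keratin 5 promoter drives the fluorescent protein Venus. Cells bearing E-cadherin, the adhesion protein of epithelia, were divided by flow cytometry on the receptor tyrosine kinase Kit and on Venus. The 4 populations, with 3 libraries each, were Kit+ cells with or without Venus (Kit+ K5+ and Kit+ K5-) and Kit- cells with or without it (Kit- K5+ and Kit- K5-). Every library carried the same transgene, stage and E-cadherin gate, and the labels name no treatment.

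The labels give the runs nothing but their numbers. They do not name a sort, a litter, a day or a sequencing lane for a run, nor say how many embryos were pooled. The 4 libraries of a run may be fractions of a single pool of glands, so the p-values below measure the spread between these libraries after the population means are taken out. They do not measure the spread between independent collections. Libraries held 5589037 to 13724364 counts, and the smallest was the Kit- K5+ library of the third run. Kit was at 283 to 440.1 CPM (counts scaled to a common library size, after TMM normalisation) in the 6 Kit+ libraries and at 10.1 to 26.3 CPM in the 6 Kit- libraries. Krt5, the keratin behind the reporter, was at 1.58 to 22.6 CPM in K5+ and 0.313 to 7.15 CPM in K5- libraries, and these ranges overlap. Cdh1, which encodes E-cadherin, was at 503 to 1118 CPM in 9 libraries and at 150.1 to 198 CPM in the Kit- K5- libraries, which also carried most of the mesenchymal transcripts. Values of 4 libraries are given below in that order of populations, with Kit+ K5+ first and Kit- K5- last.

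The submandibular gland grows as a branching tree whose end buds mature into acini, and acinar cells make and store the proteins of saliva. In the mouse, the first secretory products of the gland appear in proacinar cells late in gestation, while proliferative, less mature programmes recede. Retinoic acid, made from vitamin A by retinaldehyde dehydrogenases such as Aldh1a1, acts in the growth and patterning of many fetal epithelia. Mitochondria carry a small genome of their own, which encodes part of the respiratory chain and the ribosomal and transfer RNAs needed to translate it, and the remaining subunits come from the nucleus.

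Between the first and the third run, 386 of 18706 genes were higher in the first run (2.06% of the genes tested) and 323 were lower (1.73%), in edgeR's quasi-likelihood test with population and run as terms and a Benjamini-Hochberg adjusted p below 0.05. At least 2-fold differences made up 280 of the higher and 184 of the lower calls. Log2 differences are first minus the third run. Their standard error (SE) was derived from the test, as the size of the log2 difference over the square root of its F statistic. The median log2 difference over all genes tested was 0.05. Other scalings of the libraries moved that median and the split of the calls. With library size alone the median was 0.24, with 640 genes higher and 169 lower. Scaled to general epithelial genes, it was -0.33, with 126 higher and 614 lower. The sign was the same in all 4 populations for 688 of the 709 called genes (97.0%), against 27.3% of all genes tested, a share that the call itself raises. The 4 first-run libraries lay above or below the 4 third-run libraries with no overlap for 163 of the 386 higher and 114 of the 323 lower genes. Over all genes tested such separation was seen for 2.74% upward and 2.25% downward. Here too the call itself raises the share, since it rests on the same libraries. No called gene turned sign in any of 29 alternative fits in which it was tested, though these fits reuse libraries of the main fit. The count of calls depended on single libraries. It lay between 156 and 852 when each of the 12 was left out in turn (fewest without the third-run Kit+ K5- library), and 139 of the 709 calls (19.6%) passed in every such fit. Without the Kit+ K5- libraries 106 genes were called, and with only the 8 libraries of the compared runs 155.

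Several genes of salivary secreted proteins were much higher in the first run. Of the 23 genes on that list 22 were in the files and 20 had enough counts to be tested. Of these, 5 were higher and 0 were lower. The median log2 difference of the 20 was 2.35, and 18 of them had a log2 difference above 0. The 5 were Bpifa2, Smgc, Muc19, Lpo and Pip. Bpifa2, a secreted parotid and submandibular protein of the BPI fold family, was at 373, 4379, 67.1 and 28.2 CPM in the first run, at 25.5, 183, 0.686 and 0.692 CPM in the second and at 0.389, 1.02, 0.939 and 0 CPM in the third (log2 10.75 ± 0.75 (SE), adjusted p = 4.68e-06). Every first-run library was above every third-run library, and within the first run the Kit+ K5- library was the highest. A count of 0 allows up to 0.307 CPM in the Kit- K5- library of the third run. With the Kit+ K5- libraries left out, the log2 difference of Bpifa2 was 8.77 (adjusted p = 0.000199).

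Smgc encodes a mucin-like protein of the neonatal submandibular gland. It was at 444, 446, 307 and 1680.3 CPM in the first run, 51.8, 48.4, 39.2 and 77.9 CPM in the second and 1.81, 8.3, 3.57 and 3.98 CPM in the third (log2 7.15 ± 0.45, adjusted p = 1.69e-06). Here the Kit- K5- library was the highest of the first run, and the 3 runs did not overlap. Muc19, a gel-forming salivary mucin, was at 139.8, 202, 73.4 and 181 CPM in the first run and 6.61, 11.4, 4.32 and 3.07 CPM in the third (log2 4.63 ± 0.29, adjusted p = 1.69e-06). The 2 gene models of GENCODE M21 lie on the same strand of chromosome 15 and overlap (Smgc from 91838265 to 91861438, Muc19 from 91838326 to 91934555), so the split of reads between them is uncertain. Lpo, the lactoperoxidase of saliva, was at 33.4, 290.0, 10.2 and 24.8 CPM in the first run and 7.64, 6.26, 4.32 and 0.102 CPM in the third (log2 3.66 ± 0.65, adjusted p = 0.00874). Pip, a prolactin-induced secreted protein, was scarce. It had 148 counts in the 4 first-run libraries and 1 count in the third run, a ratio of 101 after allowing for library size (95% interval 17.8 to 4005, counting error only). Without the third-run Kit+ K5- library, Pip did not pass (adjusted p = 0.08), and of the 12 fits without 1 library 4 lost the call.

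The 250 bases before the annotated starts of Bpifa2 and Smgc are shown because these genes had the largest differences among the secreted proteins and moved in the same direction. Bpifa2 starts on chromosome 2 (chr2:154008026-154008275, plus strand) and Smgc on chromosome 15 (chr15:91838078-91838327, plus strand), both from RefSeq on GRCm38.p6. RefSeq starts Smgc downstream of the GENCODE start given above, so the end of that window, with the motif, lies inside the GENCODE gene model. Capitals mark the motif TATAA, searched on both strands.
Bpifa2 promoter: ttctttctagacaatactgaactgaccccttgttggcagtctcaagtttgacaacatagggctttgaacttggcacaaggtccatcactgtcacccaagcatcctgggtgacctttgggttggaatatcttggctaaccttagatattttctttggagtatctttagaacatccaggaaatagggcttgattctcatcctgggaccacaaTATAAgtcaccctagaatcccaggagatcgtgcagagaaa
Smgc promoter: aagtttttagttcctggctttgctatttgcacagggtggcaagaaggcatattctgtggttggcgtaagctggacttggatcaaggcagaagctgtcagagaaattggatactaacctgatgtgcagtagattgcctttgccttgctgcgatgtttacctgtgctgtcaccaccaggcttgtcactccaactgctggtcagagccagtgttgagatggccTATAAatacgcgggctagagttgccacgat
The motif began at position -40 relative to the start of Bpifa2 and at -30 relative to that of Smgc. It was absent from the same window of Aqp5, an acinar gene that was also higher in the first run. The GC content of the windows was 44% for Bpifa2, 48.8% for Smgc and 78.4% for Aqp5. TATAA stood in 13.7% of the windows of 12320 genes tested, in 13.4% of 298 genes higher in the first run and in 17.2% of 203 genes lower there.

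**Figure D1:**
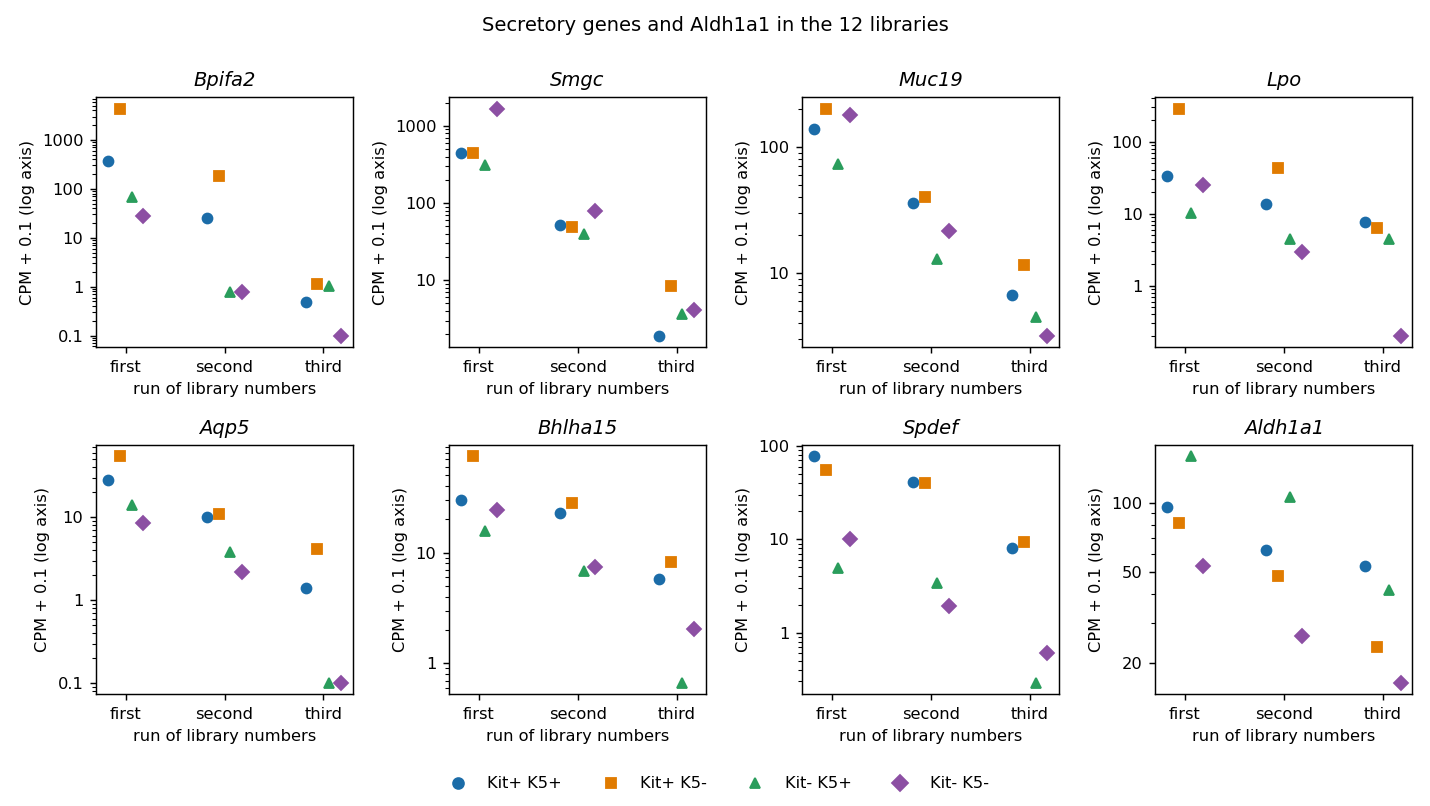
CPM plus 0.1, on a log axis, of 8 genes in the 12 libraries, by run of library numbers, with colour and symbol giving the population. Bpifa2, Smgc, Muc19, Lpo, Aqp5 and Bhlha15 have all 4 first-run libraries above all 4 third-run libraries, whereas the ranges of Spdef and Aldh1a1 overlap between runs.

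Part of the acinar cell machinery was higher as well. Of 25 acinar factors, channels and vesicle genes tested, 7 were higher in the first run, 0 were lower, and the median log2 difference was 0.89. Bhlha15 (Mist1), the transcription factor of mature secretory cells, was at 29.96, 74.6, 15.7 and 24.1 CPM in the first run and 5.7, 8.15, 0.563 and 1.94 CPM in the third (log2 3.29 ± 0.32 (SE), adjusted p = 0.000135). Aqp5, the water channel of acinar cells, was at 28, 54.9, 13.8 and 8.5 CPM against 1.3, 4.08, 0 and 0 CPM (log2 4.67 ± 0.54, adjusted p = 0.000452). Neither gene's runs overlapped. Spdef, a transcription factor of mucous secretory cells, was at 78.1, 54.7, 4.81 and 10.1 CPM in the first run and 8.03, 9.32, 0.188 and 0.511 CPM in the third (log2 3.35 ± 0.36, adjusted p = 0.000283). Its first-run Kit- K5+ library was below the Kit+ libraries of the third run, although each population was higher in the first run.

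The other 4 called members were Cldn10, Rab3d, Kcnn4 and Creb3l1. Cldn10, a claudin of secretory epithelia, had a mean of 46.2 ± 33.6 CPM in the first run and 16.1 ± 10.9 CPM in the third (SD, n = 4; log2 1.44 ± 0.19, adjusted p = 0.00134). Rab3d, a GTPase of secretory granules, had means of 31.9 and 5.71 CPM (log2 2.23), and the potassium channel gene Kcnn4 had means of 65.7 and 19 CPM (log2 1.68). Creb3l1, a transcription factor of the secretory pathway, had means of 212 and 58.4 CPM (log2 2.64). Its relative Creb3l4, which was chosen after its values were seen, was at 56.7, 24.4, 15.5 and 11.6 CPM in the first run and 8.16, 6.41, 1.69 and 2.86 CPM in the third (log2 2.42 ± 0.30, adjusted p = 0.000816), with no overlap. Among 27 genes of folding and translocation in the endoplasmic reticulum, 1 was higher, 0 were lower and the median log2 difference was 0.20. That gene was Herpud1, part of ER-associated degradation (log2 1.08 ± 0.25, adjusted p = 0.0301). With the third-run Kit+ K5- library left out, Herpud1, Kcnn4 and Creb3l1 did not pass (adjusted p = 0.12, 0.0816 and 0.0844), and of the 12 fits without 1 library 5, 2 and 2 lost the call, respectively. Largest folds were ranked among called genes that averaged at least 10 CPM in the higher run, had the same sign in all populations and did not overlap between runs, leaving out symbols that start with Gm or end in Rik. The others upward were BC048546, Plaur, Liph, Rap1gap, Ptprn2 and Pglyrp1. Plaur, the urokinase receptor, ranged from 4.45 to 18.3 CPM in the first run and from 0 to 1.33 CPM in the third (log2 4.49). Ptprn2, a protein of secretory vesicles, ranged from 11 to 21.4 CPM and from 0.518 to 2.91 CPM (log2 3.50).

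Another group with several calls was that of luminal duct genes. Of 18 tested, 5 were higher and 0 lower, with a median log2 difference of 1.14. Taken within each population, the list's median was 1.48, 1.56, -0.05 and 0.57. Its summed level was 1439, 1376, 986 and 361 CPM in the first run and 791, 737, 1219 and 335 CPM in the third. Krt19, a keratin of simple and ductal epithelium, was at 26.3, 22.6, 15.5 and 9.09 CPM in the first run and 0.777, 1.16, 7.32 and 1.94 CPM in the third (log2 2.90 ± 0.56, adjusted p = 0.0146). Krt18 was at 369, 339, 55 and 59.5 CPM against 51.8, 52, 41.9 and 25.7 CPM (log2 1.78 ± 0.36, adjusted p = 0.0177), and its partner Krt8 had means of 43.5 ± 29.1 and 15.3 ± 5.57 CPM (log2 1.32). Wfdc2, a secreted antiprotease, was at 48.1, 63.1, 31.4 and 19.96 CPM against 10.1, 16.6, 4.32 and 1.23 CPM (log2 2.71 ± 0.31, adjusted p = 0.000452), with no overlap. The tight junction gene Cldn3 was also higher (log2 1.64). Krt18 differed by 2.83 and 2.70 on the log2 scale in the Kit+ populations and by 0.39 and 1.20 in the Kit- populations, and the test of that difference did not pass (adjusted p = 0.109). With the Kit+ K5- libraries left out, 1 of the 18 passed. In the fit that left out the third-run Kit+ K5- library, Krt19, Krt18, Krt8 and Cldn3 did not pass (adjusted p = 0.0695, 0.0849, 0.0565 and 0.0864), and of the 12 fits without 1 library 2, 3, 1 and 4 lost the call, respectively.

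Of 17 basal duct genes, 1 was higher, 0 were lower and the median log2 difference was -0.70. The direction was not shared by the populations: taken within each, the list's median was -0.54, -1.05, 0.99 and -1.39. Its summed level was 1043, 549, 3574 and 343 CPM in the first run and 1492, 1303, 1853 and 626 CPM in the third. The number of basal duct genes lower was 8 with no filter, 7 without the Kit- K5+ libraries, 4 with DESeq2 and 3 when scaled to general epithelial genes. It was 0 to 7 with 1 library left out, most without the first-run Kit- K5+ library. The called gene was Krt6a, a stress-responsive keratin, which was at 16.5, 19.3, 4.81 and 6.78 CPM in the first run and 1.55, 0.146, 3.38 and 0.715 CPM in the third (log2 3.20 ± 0.74, adjusted p = 0.0301). Of 18 end bud and FGF response genes, 0 were higher and 1 was lower, with a median of -0.26. That gene was Fgfr2, whose epithelial form receives the FGF signals that drive bud growth. It was at 105, 86.8, 356 and 29.8 CPM in the first run and 279, 239.5, 400.0 and 162 CPM in the third (log2 -1.37 ± 0.26, adjusted p = 0.0118), and the ranges overlapped. Of 12 myoepithelial and contractile genes, 1 was higher (Mylk, myosin light chain kinase, log2 1.94 ± 0.35, adjusted p = 0.0103) and 0 were lower. The list's median was 0.89, and within the populations it was 0.14, -0.20, 3.15 and 0.73, largest in Kit- K5+. Its summed level was 235, 166, 1953 and 602 CPM in the first run and 290, 267, 366 and 423 CPM in the third. In the general epithelial list, 6 of 22 genes were higher and 1 was lower, with a median of 0.74. Cldn6, a claudin of immature epithelium, was the lower one, at 16.7, 22, 16.6 and 1.71 CPM in the first run and 28.9, 55.8, 61.8 and 28.9 CPM in the third (log2 -1.85 ± 0.38, adjusted p = 0.0182), with no overlap. The 6 higher ones were Krt8, Krt18, Cldn3, Cldn7, Prss8 and Llgl2, and 0 of the 6 passed without the Kit+ K5- libraries. Without the third-run Kit+ K5- library, Krt6a, Fgfr2, Cldn6, Prss8 and Llgl2 did not pass (adjusted p = 0.116, 0.0531, 0.0617, 0.136 and 0.119), and of the 12 fits without 1 library 5, 1, 1, 6 and 4 lost the call, respectively.

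Among retinoid genes, Aldh1a1 was higher and 2 others were lower. Aldh1a1 (chromosome 19, 20492715 to 20643465) was at 95.5, 81.3, 159.7 and 52.6 CPM in the first run, 62.3, 47.9, 105 and 26.1 CPM in the second and 53, 23.3, 41.7 and 16.2 CPM in the third (log2 1.55 ± 0.20 (SE), adjusted p = 0.0011). Each population was higher in the first run, by 0.85 to 1.93 on the log2 scale, but the lowest first-run library, Kit- K5-, was level with the highest third-run library, Kit+ K5+. Of 12 genes of retinoid synthesis and storage tested, Aldh1a1 was the 1 that was higher. Stra6, the membrane receptor for retinol-binding protein, was the 1 that was lower, at 5.75, 7.83, 3.08 and 88.4 CPM in the first run and 35.4, 32.3, 18.4 and 109 CPM in the third (log2 -1.80 ± 0.40, adjusted p = 0.0255). Aldh1a3, another retinaldehyde dehydrogenase, had means of 9.63 ± 7.45 and 13 ± 5.13 CPM and did not pass (log2 -0.63 ± 0.30, adjusted p = 0.261). Among 11 genes of retinoid breakdown, binding and response, 0 were higher and 1 was lower. Rarb, a retinoic acid receptor that is itself induced by retinoic acid, was at 2.32, 2.51, 4.32 and 45.3 CPM in the first run and 8.16, 10.8, 52.7 and 47.8 CPM in the third (log2 -1.86 ± 0.44, adjusted p = 0.0333). In both lower genes the Kit- K5- levels of the first and the third runs were close to each other, and their calls were lost with limma-voom after Benjamini-Hochberg adjustment (Stra6 adjusted p = 0.053, Rarb adjusted p = 0.121). With the third-run Kit+ K5+ library left out, Stra6 did not pass (adjusted p = 0.0817), and of the 12 fits without 1 library 5 lost the call. In the fit that left out the third-run Kit+ K5- library, Rarb did not pass (adjusted p = 0.117), and of the 12 fits without 1 library 7 lost the call. The medians of the 2 lists were -0.17 and -0.28.

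Among stress lists, immediate early genes had the most calls. These are transcription factors and feedback regulators induced within minutes by growth factors or stress. Of 31 tested, 8 were higher in the first run and 0 were lower, with a median log2 difference of 0.58. Zfp36, an mRNA decay factor, was at 497, 687, 533 and 1223 CPM in the first run, 235, 188, 194 and 282 CPM in the second and 240.4, 266, 212 and 563 CPM in the third (log2 1.22 ± 0.17, adjusted p = 0.00252). Each population was higher in the first run, and the Kit- K5- library of the third run overlapped with it. Nr4a1, an orphan nuclear receptor, was at 275, 224, 214 and 128 CPM in the first run, 120.3, 90.9, 51 and 49.9 CPM in the second and 81.9, 86.3, 86.5 and 79.7 CPM in the third (log2 1.26 ± 0.21, adjusted p = 0.0065). Btg2, an antiproliferative factor, was at 112, 102, 134 and 131 CPM against 35.1, 30.3, 69.6 and 98.2 CPM (log2 1.17 ± 0.21, adjusted p = 0.00939). Neither of the last 2 genes overlapped between the runs. The remaining calls were Junb, Ier3, Ier2, Nr4a2 and Socs3, with log2 differences of 0.88 to 1.06. The second run was not between the others for these genes: the list's median difference was 1.00 between the first and second runs. Summed over the list, the second run had the lowest level in 3 of the 4 populations (2975 to 5323 CPM). The sum was 6210.0 to 10365 CPM in the first run and 3751 to 10501 CPM in the third. In Kit- K5- it was not higher in the first run, at 10365 CPM against 10501 CPM in the third. Taken within each population, the list's median difference between the first and the third run was 1.02, 0.84, 0.23 and 0.31.

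Depending on the library left out, 2 to 8 of the 31 were higher. With general epithelial genes as the scale no immediate early gene passed, and the list's median was then 0.17 while that of all genes was -0.33. Heat shock genes had 1 of 17 higher and 0 lower, and the called gene was Bag3, a co-chaperone (log2 0.74). Genes of the integrated stress response and p53 targets had 0 of 20 and 0 of 16 called, with medians close to 0 and of -0.02. At an unadjusted p below 0.05 the whole comparison held 3730 genes. Oxidative stress genes and metallothioneins had 0 of 13 called and a median of 0.63. Among hypoxia and glycolysis genes 2 of 28 were higher and 0 lower, namely Hk1, a hexokinase (log2 1.37 ± 0.20, adjusted p = 0.00254), and Egln3, an oxygen sensor (log2 1.01 ± 0.19, adjusted p = 0.0113), while the median was 0.01. Of 16 interferon response genes, Stat2, a signal carrier of the interferon receptor, was higher (log2 0.98) and 0 were lower. Without the third-run Kit+ K5+ library, Bag3 did not pass (adjusted p = 0.0968), and of the 12 fits without 1 library 4 lost the call. With the third-run Kit+ K5- library left out, Egln3 and Stat2 did not pass (adjusted p = 0.0727 and 0.115), and of the 12 fits without 1 library 2 and 5 lost the call, respectively.

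Mitochondrially encoded transcripts took a smaller share of the counts in the first run. The share was 22.5, 11, 24.2 and 5.59% in the first run, 17.8, 13.4, 30.6 and 9.4% in the second and 30.9, 27.3, 29.1 and 12.2% in the third. It was lower in the first than in the third run in 4 of 4 populations, by 9.03 percentage points on average (15.8% ± 9.02 against 24.9% ± 8.55, SD, n = 4). An exact two-sided permutation test that swaps the runs within populations gave p = 0.125, the smallest value this design allows. The ribosomal RNAs made up most of it, and the mRNAs alone took 3.11% ± 1.67 of counts in the first run and 6.32% ± 1.86 in the third (exact permutation p = 0.125).

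Of 13 mitochondrially encoded mRNAs in the files 10 were tested. Of these, 8 were lower in the first run, 0 were higher and the median log2 difference was -1.38. mt-Nd5, a complex I subunit, was at 8925, 2989.5, 3991 and 1760.1 CPM in the first run, 4062, 3429.9, 6123 and 2834 CPM in the second and 16123, 15280.5, 12064 and 5534 CPM in the third (log2 -1.59 ± 0.27, adjusted p = 0.00711). mt-Nd4 was at 9787, 2446, 4246 and 1362 CPM in the first run and 18283, 14283, 12969 and 5212 CPM in the third (log2 -1.71 ± 0.34, adjusted p = 0.0166). mt-Co1, the core subunit of cytochrome oxidase, had means of 6432 ± 3606 and 13155 ± 4985 CPM (log2 -1.12 ± 0.23, adjusted p = 0.0191). In each of the 3 genes the Kit- K5- library of the third run lay within the range of the first run, so the groups overlapped. The second run was close to the first, and the median of the list between those runs was 0.12. Depending on the library left out, 2 to 9 of the 10 passed. None of them passed without the Kit+ K5- libraries, where their median was -1.12. Reads of mitochondrial genes can be shared with nuclear copies of that genome, and how such reads were counted is not stated in the labels.

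Some mitochondrial transfer RNAs, the adaptors of the organelle's own translation, were among the genes with the largest folds downward by the same limits. mt-Tq was at 1.76, 2.3, 0.863 and 0.329 CPM in the first run, 2.04, 9.24, 5.21 and 3.23 CPM in the second and 7.51, 19.4, 11.5 and 10.01 CPM in the third (log2 -3.27 ± 0.49, adjusted p = 0.00301). mt-Tl1 was at 11.1, 8.04, 6.91 and 2.37 CPM in the first run and 43, 46.9, 84.5 and 19.3 CPM in the third (log2 -2.70 ± 0.36, adjusted p = 0.0016). Neither overlapped, nor did mt-Tm, mt-Tf and mt-Tl2, whose log2 differences were -2.84, -2.72 and -2.64. With GC and length offsets the log2 differences were -2.24 for mt-Tq, -1.92 for mt-Tl1, -2.05 for mt-Tm, -1.45 for mt-Tf and -1.35 for mt-Tl2. In that fit, edgeR's adjusted p for mt-Tl2 was 0.122, which did not pass, and the other 4 passed. These short RNAs abut other mitochondrial genes, so 50 nt reads from longer precursors can be counted to them. The large ribosomal RNA mt-Rnr2 passed (log2 -0.92 ± 0.22, adjusted p = 0.0359) and the small one, mt-Rnr1, did not (log2 -0.84 ± 0.26, adjusted p = 0.0914). Nuclear genes of the respiratory chain were mostly without a call. Of 57 tested, 2 were higher in the first run and 0 lower, and 51 had a log2 difference above 0. The median was 0.41, beside 0.05 for all genes tested. Scaled to general epithelial genes, it was 0.04, beside -0.33 for all genes. Among all 18706 genes tested, 9951 had a log2 difference above 0. Taken within each population, the list's median was 0.42, 0.42, 0.59 and 0.05. It was -0.14 between the first and second runs and 0.47 between the second and the third. The called genes were Ndufb9, a complex I subunit (log2 0.84 ± 0.17, adjusted p = 0.0189), and Sdhc, a complex II subunit (log2 0.73 ± 0.16, adjusted p = 0.0275). Among 23 factors that transcribe, process or copy the mitochondrial genome 0 were called, and the median was -0.18. In the fit that left out the third-run Kit+ K5- library, mt-Rnr2, Ndufb9 and Sdhc did not pass (adjusted p = 0.15, 0.111 and 0.109), and of the 12 fits without 1 library 7, 3 and 7 lost the call, respectively.

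**Figure D2:**
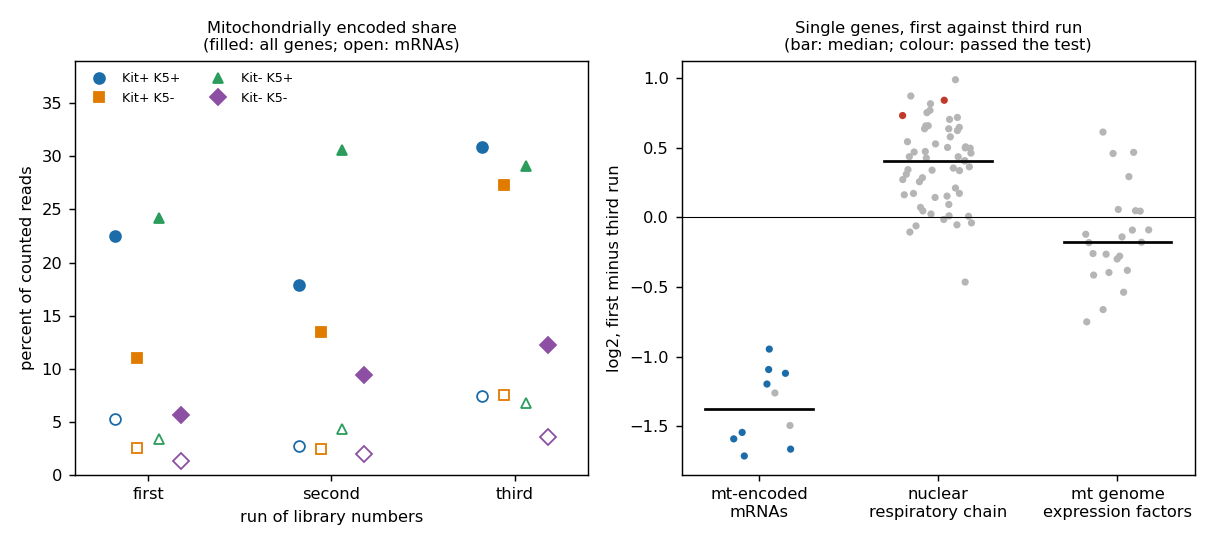
Left, the percent of counts from mitochondrially encoded genes in each library by run, with filled symbols for all such genes and open symbols for the mRNAs alone; right, log2 differences (first minus the third run) of single genes in 3 lists, with bars at the medians and colour for genes that passed the test. The 10 mitochondrially encoded mRNAs lie below 0, and 51 of 57 nuclear respiratory chain genes lie above it, beside 9951 of all 18706 genes tested.

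The lists on growth and the clock are to be read beside the 2.06% of all tested genes that were higher and the 1.73% that were lower. Of 80 cytosolic ribosomal protein genes 1 was higher (Rpl41, log2 0.72) and 0 were lower, with a median of 0.25. In the mitosis list 0 of 23 genes were higher and 2 were lower: Bub1, a spindle checkpoint kinase (log2 -0.68 ± 0.16, adjusted p = 0.0282), and Top2a, the topoisomerase of dividing cells (log2 -0.57 ± 0.14, adjusted p = 0.0439). DNA replication genes had 0 of 25 called and a median of -0.05, and genes of cholesterol and fatty acid synthesis had 0 of 22 called. Of 50 replication-dependent histone genes 1 was higher, Hist1h1c (log2 1.10). Among 18 circadian clock genes 2 were higher, the period gene Per1 (log2 0.64 ± 0.16, adjusted p = 0.0455) and the repressor Nr1d1 (log2 1.37 ± 0.35, adjusted p = 0.0469), and 0 were lower. Both clock genes lost their calls under upper-quartile scaling. Without the third-run Kit+ K5- library, Rpl41 and Bub1 did not pass (adjusted p = 0.175 and 0.112), and of the 12 fits without 1 library 9 and 6 lost the call, respectively. With the third-run Kit+ K5+ library left out, Top2a, Hist1h1c, Per1 and Nr1d1 did not pass (adjusted p = 0.143, 0.0763, 0.177 and 0.149), and of the 12 fits without 1 library 10, 4, 9 and 9 lost the call, respectively.

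On the other side, single genes of several kinds were lower in the first run. Col2a1, a fibrillar collagen best known from cartilage, was at 14, 18.2, 13.4 and 2.11 CPM in the first run, 151, 173, 65.7 and 37.4 CPM in the second and 203, 241, 103 and 75.3 CPM in the third (log2 -3.84 ± 0.28 (SE), adjusted p = 7.46e-06). Hmga2, a chromatin protein of fetal and dividing cells, was at 18, 24.6, 25.5 and 6.78 CPM in the first run, 129, 119.7, 153 and 46.9 CPM in the second and 207, 210.4, 172 and 95.9 CPM in the third (log2 -3.30 ± 0.19, adjusted p = 1.69e-06). For both genes the first run was below the second and the third in every population. By the same limits the other genes with the largest folds downward, apart from mitochondrial transfer RNAs, were Tmprss11b, Mpped2, Fam150b, Flrt2 and Cpne8. Flrt2, a membrane protein of developing tissues, was at 48.9, 36, 112 and 248 CPM in the first run and 371, 449, 736 and 556 CPM in the third (log2 -2.53 ± 0.33, adjusted p = 0.0011). Cpne8, a copine, was at 9.83, 10.4, 10.7 and 3.89 CPM against 97.7, 76.3, 42.4 and 12.6 CPM (log2 -2.49 ± 0.25, adjusted p = 0.000166). Mpped2 was at 12.3, 10.9, 5.55 and 2.77 CPM against 45.3, 40.2, 76.2 and 34.9 CPM (log2 -2.77 ± 0.36, adjusted p = 0.0011). None of these 3 genes overlapped between the runs. In the fit that left out the third-run Kit- K5- library, Tmprss11b did not pass (adjusted p = 0.0522), and of the 12 fits without 1 library 2 lost the call.

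Further lower genes were chosen after their values were seen. Sox11, a transcription factor of progenitor cells, was at 235, 116, 178 and 163 CPM in the first run and 521, 499, 681 and 473 CPM in the third (log2 -1.67 ± 0.17, adjusted p = 0.000166), and Sox21 was at 3.53, 2.19, 1.48 and 1.58 against 10.4, 14.7, 20.8 and 5.82 CPM (log2 -2.44 ± 0.40, adjusted p = 0.00574). Ltbp1, which holds latent TGF-beta in the matrix, was at 41.2, 39.2, 103 and 19.2 CPM against 214, 264, 227 and 123 CPM (log2 -2.24 ± 0.24, adjusted p = 0.000238). The integrin gene Itga9 was at 84.6, 135, 111 and 41.4 CPM against 525, 557, 236 and 147 CPM (log2 -1.88 ± 0.21, adjusted p = 0.000344). The runs did not overlap for any of these 4 genes. Tnfrsf19, a TNF receptor family member, had means of 14.2 ± 9.71 and 72.6 ± 47.5 CPM (log2 -2.41 ± 0.21, adjusted p = 4.79e-05), with overlap through the Kit- K5- library of the third run. St6gal1, a sialyltransferase, had means of 60.8 ± 30.7 CPM in the first run, 187 ± 83.9 CPM in the second and 183 ± 55.7 CPM in the third (log2 -1.69). Igf2, a fetal growth factor, was also lower (log2 -1.19, adjusted p = 0.0359), and most of its transcripts were in the Kit- K5- libraries. Without the third-run Kit+ K5- library, Igf2 did not pass (adjusted p = 0.149), and of the 12 fits without 1 library 7 lost the call.

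**Figure D3:**
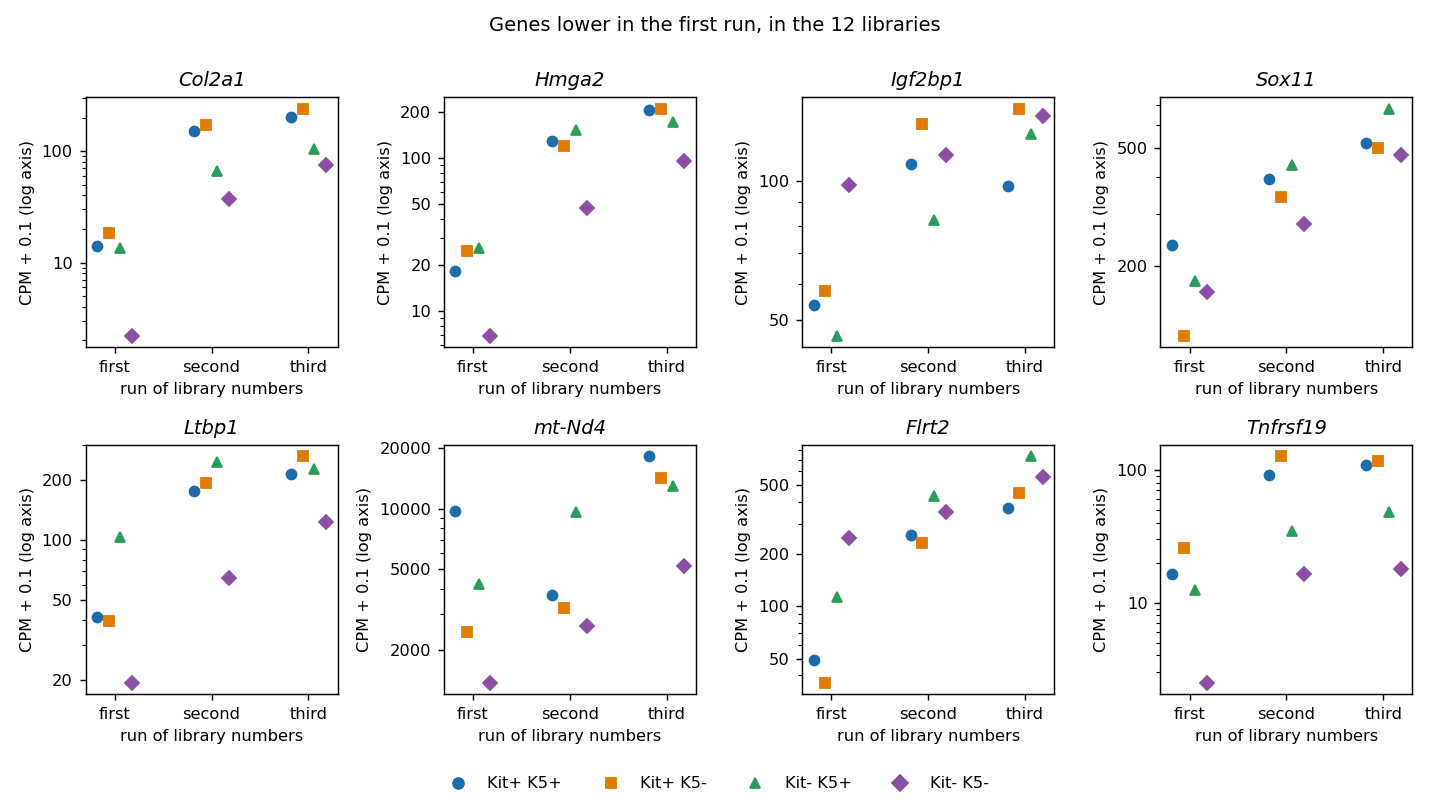
CPM plus 0.1, on a log axis, of 8 genes lower in the first run, by run of library numbers, with colour and symbol giving the population. Col2a1, Hmga2, Sox11, Ltbp1 and Flrt2 have all 4 first-run libraries below all 4 third-run libraries, and the ranges of Igf2bp1, mt-Nd4 and Tnfrsf19 overlap.

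Hmga2 and the RNA-binding protein genes Igf2bp1 and Igf2bp2 are known targets of the let-7 microRNAs, which accumulate as tissues mature. Small RNAs were not measured here. The sites are shown because these genes were lower together in the first run. The mature let-7a-5p strand (chr13:48538239-48538260, minus strand, from RefSeq on GRCm38.p6) has its seed, bases 2 to 8, in capitals, and in the sites (3' UTRs of GENCODE M21) capitals mark CTACCTC, the complement of that seed, searched on the transcript strand.
mmu-let-7a-5p: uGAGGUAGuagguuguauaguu
Hmga2 site 1: ccgacattcaatttCTACCTCag
Hmga2 site 2: cccactcctcaataCTACCTCtg
Hmga2 site 3: tgatttgcaaggaaCTACCTCca
Hmga2 site 4: atcaaaacacactaCTACCTCtt
Igf2bp1 site 1: ctgtgcgaagtaaaCTACCTCaa
Igf2bp2 site 1: cacacaaataaaagCTACCTCag
Hmga2 held 4 such sites on chromosome 10 (the first at chr10:120364223-120364245, minus strand), Igf2bp1 held 4 on chromosome 11 (the first at chr11:95961777-95961799, minus strand) and Igf2bp2 held 1 on chromosome 16 (chr16:22059472-22059494, minus strand). Igf2bp2 was at 110.2, 63.5, 87.8 and 146 CPM in the first run and 199, 209.7, 187 and 215 CPM in the third (log2 -1.04 ± 0.18, adjusted p = 0.00789), with no overlap. Igf2bp1 was at 53.9, 57.7, 46.2 and 97.9 CPM against 97.4, 144, 127 and 138 CPM (log2 -1.02 ± 0.19, adjusted p = 0.011), and the ranges met.  Their relative Igf2bp3 did not pass (log2 -0.16 ± 0.15, adjusted p = 0.597), and neither did Lin28b, which blocks let-7 maturation (log2 -1.11 ± 0.50, adjusted p = 0.233). At least 1 site stood in 20.7% of the 3' UTRs of 251 lower genes, in 10.4% of those of 374 higher genes and in 10.5% of all 14730 tested. The 3' UTRs of the lower genes were longer, at a median of 2390 bases against 1164 bases for all. Per 1000 bases of 3' UTR the lower genes held 0.0924 sites, the higher genes 0.0808 and all genes 0.073. The median log2 difference was 0.08 for 13187 genes without a site and -0.01 for 1352 genes with 1 site. It was 0.002 for 164 genes with 2 sites and -0.20 for 27 genes with 3 or more.

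Genes of mast cells and leukocytes were higher in the first run. The difference was largest in Kit+ K5- for mast cell genes, and in Kit+ K5- and Kit- K5- for leukocyte genes. Taken within each population, the mast cell list's median was 2.47, 4.88, 0.79 and 0.65. Of 8 mast cell genes 5 were higher, 0 were lower and the median was 3.13. The chymase gene Cma1 was at 5.19, 965, 0.617 and 0.263 CPM in the first run and 0, 13, 0 and 0 CPM in the third (log2 5.92 ± 0.59, adjusted p = 0.000136). Cpa3, the mast cell carboxypeptidase, was at 28.9, 2088, 1.6 and 6.85 CPM against 0, 76.4, 0.751 and 5.41 CPM (log2 3.62 ± 0.77, adjusted p = 0.0212). Mast cells bear Kit, and the summed level of the 8 genes was 4900.1 CPM in the Kit+ K5- library of the first run, 226 CPM in that of the second and 128 CPM in that of the third. In the other 9 libraries it was 2.74 to 47.1 CPM. In the Kit+ K5+ library of the third run 7 of the 8 genes were at 0. Without the Kit+ K5- libraries 0 of the mast cell genes still tested passed, with a median of 1.88 among those. Mcpt4 and Tpsb2, called in the main fit, were not tested in that fit. The first-run Kit+ K5- library, with the most mast cell transcripts, also had the highest Bpifa2, Lpo, Aqp5 and Bhlha15 levels of the series. In 7862830 counts it had 29126 genes detected, beside 20826 to 27406 in the other libraries. Its TMM factor of 1.22 was the largest. The part of these traits in the calls was not tested. With the Kit+ K5- libraries left out, Aqp5 (log2 5.64) and Bhlha15 (log2 3.38) still passed, and Lpo did not (log2 2.95, adjusted p = 0.116).

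Of 12 leukocyte and macrophage genes 6 were higher and 0 lower, with a median of 2.60. The number higher was 3 without the Kit+ K5- libraries, 3 without the Kit- K5- libraries and 4 to 9 with 1 library left out (fewest without the third-run Kit+ K5- library, most without the third-run Kit- K5+ library). Laptm5, a lysosomal protein of leukocytes, was at 5.94, 173, 9.74 and 144 CPM in the first run, 0.778, 24.7, 0.549 and 48.3 CPM in the second and 0.259, 17, 0.375 and 30.9 CPM in the third (log2 3.26 ± 0.35, adjusted p = 0.000238). Lyz2, the lysozyme of macrophages, was at 0.186, 9.82, 2.1 and 207 CPM against 0.389, 0.437, 0.188 and 14.7 CPM (log2 3.45 ± 0.52, adjusted p = 0.00323), most of it in the Kit- K5- libraries. The summed level of the list ranged from 56.8 to 1438 CPM in the first run and from 54.8 to 248 CPM in the third, highest in the Kit- K5- libraries. In the Kit+ K5+ and Kit- K5+ libraries it was 54.8 to 75.4 CPM in every run. Mesenchymal genes had 0 of 16 called and a median of 0.48. Their sum was 12792 to 21434 CPM in the Kit- K5- libraries and at most 1243 CPM in the others. Of 8 endothelial, 9 neuronal and 6 skeletal muscle genes 0 were called. Of 9 Schwann and glial genes 1 was lower, the neurotrophin receptor gene Ngfr (log2 -2.04 ± 0.38, adjusted p = 0.0118), and 0 were higher. In such bulk samples, more cells of a type and more RNA per cell cannot be told apart. The part of these transcripts in the differences of gland genes was not tested. With the third-run Kit+ K5- library left out, Cpa3 and Ngfr did not pass (adjusted p = 0.165 and 0.0531), and of the 12 fits without 1 library 4 and 1 lost the call, respectively. In the fit that left out the first-run Kit- K5- library, Lyz2 did not pass (adjusted p = 0.0564), and of the 12 fits without 1 library 1 lost the call.

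Haemoglobin transcripts differed in kind. Hbb-y encodes an embryonic beta-type globin made by early erythroid cells, and Hbb-bs and Hbb-bt encode the adult forms. Hbb-y was at 0, 0.104, 0 and 4.94 CPM in the first run, 0, 0, 0.411 and 33.9 CPM in the second and 4.92, 0, 0.563 and 44.9 CPM in the third (log2 -4.15 ± 1.05, adjusted p = 0.0422). The adult gene Hbb-bt was at 3.43, 2.92, 3.21 and 148 CPM against 1.17, 1.6, 1.5 and 19.1 CPM (log2 1.88 ± 0.46, adjusted p = 0.0371), and the alpha globin gene Hba-a1 was higher in the first run too (log2 2.69). Hbb-bs, the more abundant adult gene, was at 8.72, 10.3, 12.8 and 473 CPM against 3.37, 9.03, 5.82 and 50.3 CPM and did not pass (log2 1.63 ± 0.47, adjusted p = 0.0713). Most globin reads were in the Kit- K5- libraries. There Hbb-y made up 75 of 9489 beta globin counts in the first run, or 0.790% (95% Wilson interval 0.631 to 0.990). It made up 441 of 1546 in the second, or 28.5% (26.3 to 30.8), and 439 of 1118 in the third, or 39.3% (36.4 to 42.2). Each share comes from a single library, the intervals cover counting error only, and the near-identical globin genes may share reads. Hbb-y also lost its call with DESeq2. Without the first-run Kit- K5- library, Hbb-y, Hbb-bt and Hba-a1 did not pass (adjusted p = 0.141, 0.24 and 0.171), and of the 12 fits without 1 library 9, 6 and 3 lost the call, respectively.

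Xist, the RNA of the inactive X chromosome, was at 707, 930.2, 1099 and 1685 CPM in the first run and 959, 2017, 1639 and 2375 CPM in the third (log2 -0.67 ± 0.17, adjusted p = 0.0385). The Y-linked genes Ddx3y and Eif2s3y were present in all 12 libraries and did not pass (log2 -0.20 and -0.21), so every library held RNA of both sexes. Of 10 nuclear-retained long RNAs 1 was higher and 1 lower, and the median was -0.62. Neat1, the scaffold of paraspeckles, was at 399.7, 844, 204 and 349.5 CPM in the first run, 65.4, 69.3, 56.8 and 36.5 CPM in the second and 65, 148, 123 and 43.5 CPM in the third (log2 2.25 ± 0.31, adjusted p = 0.00161), with no overlap. Kcnq1ot1, an imprinted antisense RNA, was lower (log2 -0.70), and where strand is not counted its reads cannot be told from those of the host gene. With the third-run Kit+ K5- library left out, Xist and Kcnq1ot1 did not pass (adjusted p = 0.167 and 0.137), and of the 12 fits without 1 library 8 and 4 lost the call, respectively.

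**Figure D4:**
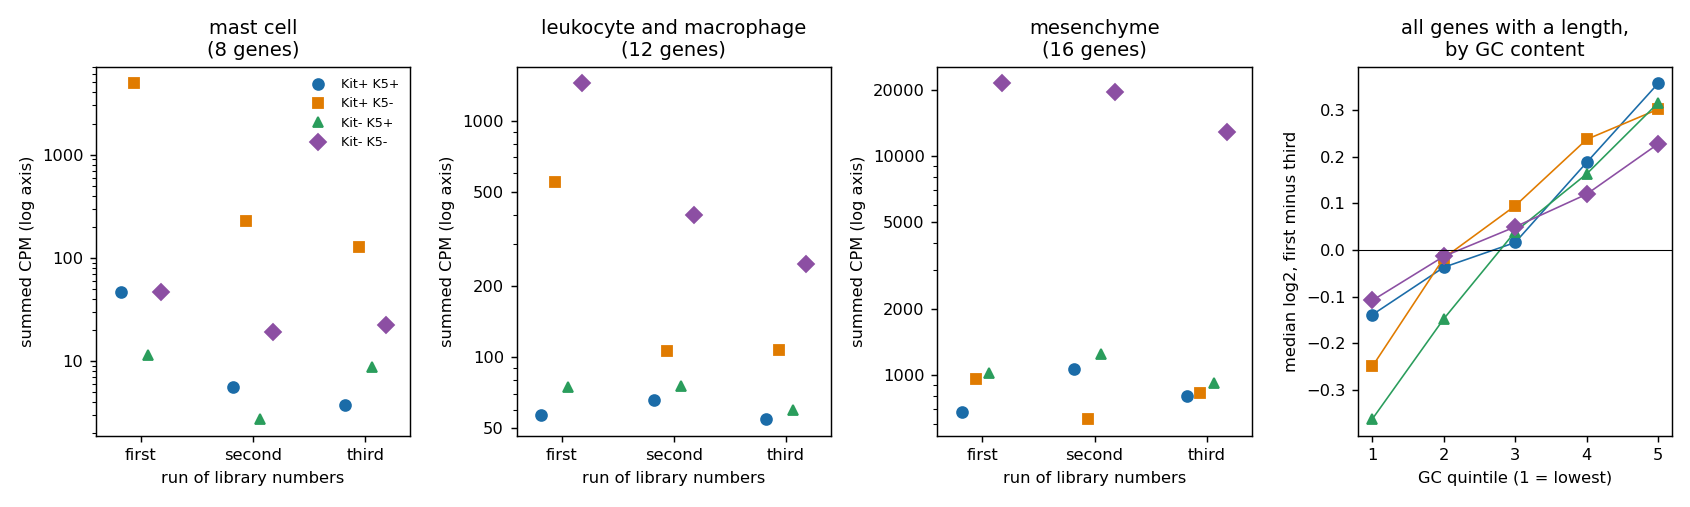
Summed CPM (log axis) of mast cell, leukocyte and mesenchymal genes in each library by run, and the median log2 difference between the first and the third run in 5 groups of genes by transcript GC content, for each population. The first-run Kit+ K5- library stands at 4900.1 CPM for mast cell genes, and in each population the median rises with GC content.

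The run difference varied with base composition across genes. For 17354 tested genes with a transcript length and GC content, the Spearman correlation of the log2 difference with GC content was 0.268 across genes, which are not independent replicates. Genes were divided into 5 equal groups. In the group with the lowest GC content (27.5% to 43.7%) the median log2 difference was -0.22, with 25 genes higher and 125 lower. In the group with the highest (55% to 73.7%) it was 0.32, with 140 genes higher and 19 lower. The order was the same in each population, with medians of -0.36 to -0.11 in the lowest and 0.23 to 0.36 in the highest group. The correlation with transcript length was -0.0942, and of 5 groups by length the one with the longest transcripts had 64 genes higher and 135 lower. With offsets that remove each library's trend with GC content and length, 244 genes were higher and 227 lower, and 393 of the 709 calls passed. Bpifa2 (log2 10.78), Smgc (7.24), Aldh1a1 (1.51) and Hmga2 (-3.27) were among those that passed. Of the immediate early genes 4 passed, and of the mitochondrially encoded mRNAs 6. This setting was chosen after the data were seen.

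The run difference itself was then compared between populations. The term for Kit+ against Kit- populations called 80 of 18706 genes (0.428%), 25 with a more positive and 55 with a more negative difference in Kit+ cells. Of these, 7 were also called between the first and the third runs. The 5 smallest adjusted p-values were those of Crispld2, Col15a1, Dpysl3, Sparc and Adamts4, mostly genes of the extracellular matrix. Col15a1, a basement membrane collagen, was at 19.2, 24.4, 31.4 and 402 CPM in the first run and 237, 225, 28.2 and 125 CPM in the third, a mean log2 difference of -3.40 in Kit+ and 0.92 in Kit- populations (adjusted p for the difference = 0.00284). Sparc, a matrix glycoprotein, was at 119, 133, 669 and 2285 CPM in the first run and 354, 471, 465 and 1160.2 CPM in the third (adjusted p for the difference = 0.00319). The term for K5+ against K5- populations called 0 genes in edgeR (smallest adjusted p = 0.0882, 1099 genes at an unadjusted p below 0.05), 0 with limma-voom and 39 with DESeq2. With 1 library left out it called 2 to 195. Bpifa2 and Aldh1a1 passed neither term (adjusted p for Kit of 0.187 and 0.813). With 4 residual degrees of freedom these terms resolve little, and a missing call does not show that populations changed alike.

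The second run was set against each of the others in the same fit. Against the first run 119 genes were higher in the first (0.636%) and 43 lower (0.23%). Against the third run 15 genes were higher in the second (0.0802%) and 32 lower (0.171%). These comparisons share the libraries of the second run, and each shares a run with the main contrast, so their values are given side by side. Bpifa2 differed by 4.67 on the log2 scale between the first and second runs (adjusted p = 0.000376) and by 6.08 between the second and the third (adjusted p = 0.00805). Smgc differed by 3.48 (adjusted p = 0.000524) and 3.67 (adjusted p = 0.00649). For Aldh1a1 the steps were 0.75 (adjusted p = 0.0853) and 0.80 (adjusted p = 0.103), neither past the threshold. For Hmga2 they were -2.61 (adjusted p = 3.23e-05) and -0.69 (adjusted p = 0.118). For mt-Nd5 they were -0.10 (adjusted p = 0.888) and -1.49 (adjusted p = 0.0481). Bpifa2 and Smgc passed at both steps, Hmga2 passed between the first and second runs, and mt-Nd5 passed between the second and the third.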

How the data were processed

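Total RNA of sorted cells was sequenced as single 50 nt reads. Per the submitters' processing notes, the tools named are FastQC, STAR 2.4.2a, Picard 1.129 and Subread featureCounts 1.4.6-p3, and the build is GRCm38.p3. Neither the annotation release nor the strand setting is stated (not given in the sources used here). Values are raw read counts per gene symbol (43280 symbols), as deposited by the authors.

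From these counts, edgeR 4.0.16 (R 4.3.3) was run with filterByExpr, TMM scaling and the quasi-likelihood test on population and run, with all 12 libraries and 6 residual degrees of freedom. P-values were Benjamini-Hochberg adjusted over all 18706 genes tested, at 0.05. A log2 difference between single libraries used a prior count of 2. Added terms tested whether the run difference differed between Kit or K5 classes. Libraries of the same population are paired across runs by their labels, and the population term carries that pairing. A count of 0 allows up to 3 counts. The fit was tested on simulated counts, drawn independently for each library. It recovered 62 of 100 2-fold and 99 of 100 4-fold changes in the first run. It also called 12 unchanged genes, with 17590 tested. The simulation held no variation shared by the libraries of a run, so it cannot show how the test behaves where such variation exists. Alternatives used DESeq2 1.42.0, limma-voom (limma 3.58.1), other scalings, filters, depths and sets of libraries.

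The compared libraries and the gene lists were chosen with earlier results of these data known. The text names Bpifa2 and Aldh1a1, for each direction up to 12 called genes of largest fold and at least 10 CPM without overlap and with 1 sign in all populations, up to 4 called members of each list (or 2 highly expressed ones), and the 5 leading genes of each added term. Creb3l1, Creb3l4, Rab3d, Kcnn4, Socs3, Ier2, Ier3, Nr4a2, Prss8, Llgl2, the Sox and Igf2bp genes, the globins, the gate genes and those in the closing section were added after their values were seen.

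3' UTRs, lengths and GC content came from GENCODE M21 and promoters from RefSeq on GRCm38.p6. Both share the coordinates of GRCm38.p3.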

Additional observations from a re-analysis of the deposited data

Results flagged for a closer look

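For 6 named genes the difference between the first and the third runs itself differed between Kit+ and Kit- populations, by edgeR's quasi-likelihood test of that term with Benjamini-Hochberg adjustment. Values are log2 differences, first run minus the third. Those within Kit+ or Kit- are means of single-library differences, and the contrast is the fitted term, so that they need not subtract to it. Crispld2, a secreted protein, differed by -2.97 in Kit+ and 1.28 in Kit- populations, a contrast of -4.25 (adjusted p = 0.00248). For Col15a1 the contrast was -4.44 (adjusted p = 0.00284). Dpysl3, a cytoskeletal protein of migrating and neural cells, differed by -2.29 in Kit+ and 0.36 in Kit- populations, a contrast of -2.66 (adjusted p = 0.00319). Sparc differed by -1.69 in Kit+ and 0.75 in Kit- populations, a contrast of -2.45 (adjusted p = 0.00319). Adamts4, a matrix protease, differed by -2.45 in Kit+ and 0.36 in Kit- populations, a contrast of -2.85 (adjusted p = 0.00566). In these 5 genes both Kit+ populations were lower and both Kit- populations higher in the first run. Crispld2 was at 15.1, 13.5, 48.1 and 24 CPM in the first run and 114, 112, 12.4 and 15.5 CPM in the third. Dpysl3 was at 45, 37.5, 156 and 456 CPM in the first run and 222, 182, 127 and 341 CPM in the third. The second-run levels of the Kit+ libraries were at 125 and 148 CPM for Crispld2. The mast cell gene Cpa3 went the other way, by 5.93 in Kit+ and 0.62 in Kit- populations, a contrast of 4.59 (adjusted p = 0.0158), and its level in the first-run Kit+ K5- library was 2088 CPM.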

How the results depend on the processing

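Between the first and the third runs 386 genes were higher and 323 lower. DESeq2 called 934 and 897, limma-voom 702 and 516, library-size scaling 640 and 169, scaling to general epithelial genes 126 and 614 and no filter 931 and 662. With only the 8 libraries of the compared runs the counts were 94 and 61, and without the population term 2 and 0. Without the Kit+ K5+, Kit+ K5- or Kit- K5- libraries they were 107 and 69, 63 and 43 and 202 and 153. With GC and length offsets, added after seeing the data, they were 244 and 227. Leaving out 1 library gave 91 to 440 higher (fewest without the third-run Kit+ K5- library) and 65 to 412 lower. Between the first and second runs 162 genes were called. The count was 842 with DESeq2, 348 with limma-voom, 94 scaled to general epithelial genes, 1058 with no filter and 0 without the population term. It was 33, 15, 444 and 75 without each population in turn, and 36 to 502 without 1 library. Between the second and the third runs 47 were called. The count was 744 with DESeq2, 126 with limma-voom, 89 with upper-quartile scaling, 17 with library size only, 20 without mitochondrially encoded genes, 604 with no filter, 29 with a floor of 1 CPM in 4 libraries, 261 with only 8 libraries, 0 without the population term and 16 with GC and length offsets. Without the Kit+ K5+, Kit+ K5- or Kit- K5- libraries it was 1, 2 and 5, and without 1 library 2 to 166. The Kit term called 80 genes, 299 with DESeq2 and 70 to 430 without 1 library, and the K5 term 0, 39 and 2 to 195. The causes of these shifts were not tested. No called gene turned sign in those of the 29 alternative fits that tested it, and these fits reuse libraries of the main fit. Named genes without a call did turn in some, such as Ddx3y (0.20 with GC and length offsets), Eif2s3y (0.11 there) and Crispld2 (0.18 without the Kit+ K5- libraries). Of 108 named genes called, 55 passed in all 12 fits without 1 library. Leaving aside the fit without the population term, 32 passed under every alternative in which they were tested. Some of them had no value in some fits, such as BC048546 with GC and length offsets. The mitochondrial share kept its direction among mRNAs alone (-3.20 percentage points). Depth limits scarce genes, since a count of 0 allows up to 0.198 to 0.563 CPM, depending on the library.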

Other observations

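Genes described here were chosen after their values were seen, and their adjusted p-values are those of edgeR's quasi-likelihood fit over all genes. The 2 classical MHC class I genes, which present peptides on the cell surface, were higher in the first run. H2-K1 was at 52.9, 157, 70.05 and 115 CPM in the first run and 31.2, 55, 14.1 and 33.3 CPM in the third (log2 1.62 ± 0.24, adjusted p = 0.00301). H2-D1 was at 21.4, 84.7, 29.1 and 85.2 CPM in the first run and 8.16, 19.9, 3.57 and 21.9 CPM in the third (log2 2.07 ± 0.28, adjusted p = 0.0016). Each population was higher in the first run for both genes, although the ranges overlapped, and both calls held in all 12 fits without 1 library. These genes have near-identical relatives, so the share of reads assigned to each is uncertain. C3, the central complement protein, was at 11.9, 9.19, 22.6 and 28.1 CPM in the first run and 1.81, 5.39, 2.06 and 1.94 CPM in the third (log2 2.65 ± 0.45, adjusted p = 0.00677), with no overlap. Psap, the precursor of lysosomal saposins, was at 118, 118, 151 and 169 CPM in the first run and 73.1, 64.2, 63.3 and 72.6 CPM in the third (log2 1.01 ± 0.15, adjusted p = 0.00311), with no overlap. Padi2, a peptidylarginine deiminase, was at 196, 94.2, 18.9 and 40.4 CPM in the first run and 18.9, 14.4, 2.82 and 2.86 CPM in the third (log2 3.19 ± 0.24, adjusted p = 7.46e-06), higher in the first run in each population.

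Several developmental regulators were lower in the first run. Meis2, a homeobox factor, was at 364, 263, 415 and 132 CPM in the first run and 635, 569, 777 and 354 CPM in the third (log2 -1.07 ± 0.16, adjusted p = 0.00301). Runx2, best known from bone, was at 37.6, 41.9, 163 and 24.6 CPM in the first run and 104, 87.4, 183 and 77.4 CPM in the third (log2 -1.08 ± 0.21, adjusted p = 0.0142). Gli3, a transcription factor of the hedgehog pathway, was at 96.7, 57.1, 58.5 and 193 CPM in the first run and 127, 139.6, 172 and 279 CPM in the third (log2 -0.94 ± 0.19, adjusted p = 0.016), and Foxp2, a forkhead factor, at 4.92, 2.09, 2.47 and 13.6 CPM in the first run and 9.46, 9.32, 19.5 and 29.1 CPM in the third (log2 -1.72 ± 0.35, adjusted p = 0.0176). All 4 had overlapping runs. Meis2 kept its call in the 12 fits without 1 library. In the fit that left out the third-run Kit+ K5- library, Runx2, Gli3 and Foxp2 did not pass (adjusted p = 0.0617, 0.0756 and 0.0759), and of the 12 fits without 1 library 3, 2 and 2 lost the call, respectively. On the higher side, Nfix, a nuclear factor of late fetal development, was at 447, 271, 468 and 304 CPM in the first run and 229, 183, 166 and 214 CPM in the third (log2 0.89 ± 0.16, adjusted p = 0.011), with no overlap, and Smarca2, a chromatin remodelling ATPase, was at 437, 335, 383 and 499 CPM in the first run and 199, 211, 164 and 335 CPM in the third (log2 0.90 ± 0.15, adjusted p = 0.0071). Without the third-run Kit+ K5+ library, Nfix did not pass (adjusted p = 0.0573), and of the 12 fits without 1 library 1 lost the call.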
